A study of Macaca mulatta with 81 samples.

Results

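T cells taken at the final sample from rhesus macaques given FR104 (group FR104.F, 3 arrays) were compared with those from macaques given Bela (group Bela.F, 3 arrays), after an allogeneic hematopoietic cell transplant. These 6 arrays, out of 81 in the series, were chosen by the endings of their titles, FR104.F and Bela.F. The cells were sorted from blood on CD3, the signalling chains of the T cell receptor, and their RNA was hybridised to Affymetrix expression arrays that read the 3' part of transcripts. The FR104.F animals were 22, 23 and 24 (batch 4) and the Bela.F animals were 46, 47 and 57 (batch 3). Both groups received an allogeneic graft, and their labels name no agent besides FR104 or Bela as prophylaxis against graft-versus-host disease. The 34 healthy control arrays came from untransplanted macaques and fell into all 4 batches (5, 10, 13 and 6 arrays), so that they could estimate the batch terms. Animals 22 and 47 also gave a healthy control array each, and the 3 FR104.F animals gave arrays at day 14 (FR104.D14). The labels give no day for a final sample and no age, sex or dose, so time since transplant may differ between the groups. Each array is from 1 animal, and the small number of arrays limits the precision.

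CD28 is the main costimulatory receptor of T cells: when CD80 or CD86 on an antigen-presenting cell binds it, a T cell receptor signal leads to growth, cytokine release and survival. CTLA4, which T cells make once activated, binds the same ligands more tightly and restrains the response. FR104 is a monovalent antibody fragment that blocks CD28 and leaves CTLA4 free to bind its ligands. Bela is read here as belatacept, which joins the outer part of CTLA4 to an antibody tail, covers CD80 and CD86 and so keeps both CD28 and CTLA4 from them. The comparison therefore sets block of the receptor against block of its ligands.

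All values are log2 probe set signals, and differences are FR104.F minus Bela.F on the log2 scale with the SE of a limma model of group and batch that takes in the 81 arrays. Adjusted p are from limma with Benjamini-Hochberg adjustment over the 11806 genes tested, and a gene passed at an adjusted p under 0.05. An exact permutation test of 3 arrays against 3 cannot go below 0.1, so calls come from limma, here with the spread estimated over all groups. The genes of the CD3 chains are not among those analysed here. The T cell genes that are, such as CD5 (9.87 to 10.90 over the 6 arrays) and TRAT1 (10.64 to 12.01), stood near the levels of the healthy controls (10.24 to 11.34 and 10.66 to 12.09). The deposited values had been adjusted for batch: 62.14% of genes had an F test p above 0.95 between the batches of the controls, and no batch 4 minus batch 3 term was larger than 0.0974. Drug and batch differ together in the 6 arrays, and what that adjustment added to or removed from their difference cannot be told apart from the drug. The actin 3' minus 5' signal, which grows as RNA is shorter, was 0.425, 0.244 and 0.0946 in FR104.F and 1.18, 0.870 and 1.36 in Bela.F, with no overlap. The medians in the healthy controls were 0.655 in batch 4 and 1.24 in batch 3.

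In FR104.F, 4 of 11806 genes (0.0339%) were lower than in Bela.F and 0 were higher. They were CRYBB1, SUCNR1, EIF3I and RBKS. At an unadjusted p under 0.05 there were 248 genes higher (2.1%) and 839 lower (7.11%), and the median difference of all genes was -0.07. Most genes were close: for 9905 (83.9%) the 95% interval of the difference lay within 2-fold in either direction. With the batch terms removed, the arrays of the groups did not overlap in 2451 genes (20.8%): in 1725 (14.6%) all 3 FR104.F arrays lay below all 3 Bela.F arrays, and in 726 (6.15%) all lay above. The count of 4 came down to 0 without Bela.F animal 47 and to 1 (CRYBB1) without any of the 3 FR104.F animals, and it rose to 16 without Bela.F animal 57. It was 0 when only these 2 groups and the controls of their batches were fitted, which leaves the spread to fewer arrays, with 1091 genes at an unadjusted p under 0.05.

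Against the healthy controls, which both comparisons share, 1259 genes (10.7%) changed in FR104.F, 636 higher (5.39%) and 623 lower (5.28%), and 2082 (17.6%) changed in Bela.F, 1462 higher (12.4%) and 620 lower (5.25%). The FR104.F count was 246 without animal 22 and 718 without animal 23. The Bela.F count was 1196 without animal 46 and 818 without animal 47. With the actin signal as a covariate the FR104.F count was 729, and with no batch term 2237. Single animals also decide named genes. Of 14 genes given below as changed in FR104.F against the controls, TNFSF11, RNF115, LAG3 and CD200 kept their call without any 1 FR104.F animal. The other 10 (GZMH, KLRF1, MS4A1, CISH, SOCS2, S100A8, IL2RA, CAPNS1, SPACA9 and COMMD9) lost it without animal 22. CISH and IL2RA also lost it without animal 23, S100A8 without animal 24, and CAPNS1, SPACA9 and COMMD9 without animal 23 or 24. Of 26 given for Bela.F, 16 kept their call without any 1 Bela.F animal. MINDY2, STK38, GNLY, IFNG, CD200 and IL2RA lost it without animal 47, GZMB, NKG7 and HOPX without 46 or 47, and CASP8 without 46 or 57.

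Over all genes, the deviations of the arrays from the control mean correlated at 0.623 to 0.711 within FR104.F, at 0.514 to 0.719 within Bela.F and at 0.434 to 0.617 between the groups, as a description of arrays that share this control mean.

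CRYBB1 encodes a beta crystallin, a structural protein best known from the eye lens, and gave the smallest p. Its signal was 5.52, 5.46 and 5.88 in FR104.F animals 22, 23 and 24, and 6.57, 8.02 and 6.29 in Bela.F animals 46, 47 and 57. The 34 healthy controls ran from 5.26 to 6.01 with a median of 5.73. All 3 Bela.F arrays were above every control, while all FR104.F arrays were inside the control range. The difference was -1.35 ± 0.23, or 2.55-fold lower, with an adjusted p of 0.00116 in limma. Against the healthy controls CRYBB1 rose by 1.25 ± 0.15 in Bela.F (adjusted p 7.94e-09) and was at -0.10 ± 0.17 in FR104.F (adjusted p 0.793). Animal 47 had 5.77 in its own healthy array and 8.02 after transplant. Without that animal the difference was -0.82 with an adjusted p of 0.117, so the call rests on it. CRYBB1 kept its call in 13 of 16 alternatives, with the actin signal as a covariate among them (-1.35, adjusted p 0.00238).

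Across the 16 groups of the series, CRYBB1 had its highest mean in Bela.F (6.96 ± 0.93 SD, n = 3), and its arrays did not overlap those of Bela.Siro.D14, next in order (5.85 to 6.21, n = 3). The other 14 group means lay between 5.50 and 5.89 and overlapped their neighbours. The arrays of the FR104 animals at day 14 were 6.03, 5.31 and 5.61 in animals 22, 23 and 24.

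SUCNR1 encodes the G protein-coupled receptor for succinate, a citric acid cycle metabolite that acts as a danger signal outside cells. Its signal was 3.93, 4.03 and 3.80 in FR104.F and 7.08, 5.54 and 4.72 in Bela.F. In the controls it was 3.31 to 4.32 with a median of 3.57, under the 4.65 that was used as a filter on dim signals. The Bela.F arrays spread over more than 2 log2 units, and the lowest of them was still above all controls and all FR104.F arrays. The difference was -1.86 ± 0.39, or 3.64-fold lower (adjusted p 0.0354). SUCNR1 rose by 2.16 ± 0.26 in Bela.F against the controls (adjusted p 7.94e-09) and was at 0.30 ± 0.29 in FR104.F (adjusted p 0.5999). Because the low side is dim, the fold may be understated.

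Animal 47 had a SUCNR1 signal of 3.82 in its own healthy array against 5.54 after transplant, and animal 22 had 3.54 against 3.93. The call was lost without animal 46 (-1.21, adjusted p 0.313), without 47 (-1.98, 0.117) and without each FR104.F animal (-1.92 to -1.81, adjusted p 0.104 to 0.123). It was also lost with renewed quantile normalization (-1.82, 0.0512) and with the actin signal as a covariate (-1.91, 0.0614). Bela.F (mean 5.78 ± 1.20 SD, n = 3) and recipients without prophylaxis, NoRx.F (5.71 ± 0.68, n = 4; 5.21 to 6.68), stood highest of the 16 groups and overlapped. FR104.F ranked 10 of 16 (3.92 ± 0.11), and healthy controls were lowest (3.62 ± 0.22, n = 34).

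RBKS encodes ribokinase, which phosphorylates ribose for use in sugar and nucleotide metabolism. Its signal was 5.47, 5.44 and 5.61 in FR104.F and 6.12, 6.68 and 6.32 in Bela.F, against 5.39 to 6.01 in the controls. The Bela.F arrays were again all above the control range and the FR104.F arrays all inside it. The difference was -0.87 ± 0.18, or 1.82-fold lower (adjusted p 0.0350). RBKS rose by 0.64 ± 0.12 in Bela.F against the controls (adjusted p 3.90e-05) and was at -0.22 ± 0.13 in FR104.F (adjusted p 0.308). The adjusted p was 0.563 without animal 47 (-0.71), 0.0639 to 0.156 without each FR104.F animal and 0.0881 with the actin covariate (-0.79).

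EIF3I encodes a subunit of eukaryotic translation initiation factor 3, which prepares the small ribosomal subunit for messenger RNA. Its signal was 11.002, 10.79 and 10.86 in FR104.F and 12.13, 11.98 and 11.60 in Bela.F, with 10.64 to 11.54 in the controls. The groups did not overlap, and the difference was -1.02 ± 0.22, or 2.03-fold lower (adjusted p 0.0354). EIF3I rose by 0.69 ± 0.15 in Bela.F against the controls (adjusted p 0.000306) and was at -0.33 ± 0.16 in FR104.F (adjusted p 0.195). A second probe set of the gene disagreed, at 0.11 ± 0.27, and with the mean of both the difference was -0.46 (adjusted p 0.468). The call was lost without any 1 of the animals other than 57, and with the actin covariate (-0.96, adjusted p 0.116). The same 3 FR104 animals already had low EIF3I at day 14 (10.89, 10.71 and 10.80 in animals 22, 23 and 24).

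Markers of plasma, B and dendritic cells, averaged over each list, also lay lower in FR104.F with no overlap. In limma 0 of their members passed. At an unadjusted p under 0.05 there were 1 of 7, 0 of 9 and 2 of 6 on the lower side, where 7.11% of all genes were. Means of other lists did not overlap either, such as the crystallins (lower in FR104.F) and the T cell identity genes (higher). The mean of the 7 plasma cell markers tested was 6.90 to 6.96 in FR104.F, 7.12 to 7.72 in Bela.F and 6.54 to 7.47 in the controls, with 6 of 7 members below 0. For B cell markers the means were 5.56 to 5.69 against 5.75 to 5.91, all inside the control range of 5.39 to 6.28. Of the B cell members 7 of 9 were below 0, and their median was -0.05 against -0.07 over all genes. For dendritic cell markers the means were 5.26 to 5.59 against 5.77 to 6.02, with 5.05 to 5.94 in the controls (5 of 6 below 0). JCHAIN, the chain that joins secreted antibodies, was dim in both groups (2.65 to 2.89 against 3.26 to 4.54), and so below 4.65. MZB1, a chaperone of antibody-secreting cells, was at 5.36, 5.45 and 5.49 in FR104.F and at 6.19, 7.95 and 5.80 in Bela.F (-1.22 ± 0.31, adjusted p 0.175). XBP1, DERL3 and IRF4, also of plasma cells, were at -0.08 ± 0.23, -0.03 ± 0.13 and 0.20 ± 0.30. The part of these cells in the calls was not tested.

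**Figure D1:**
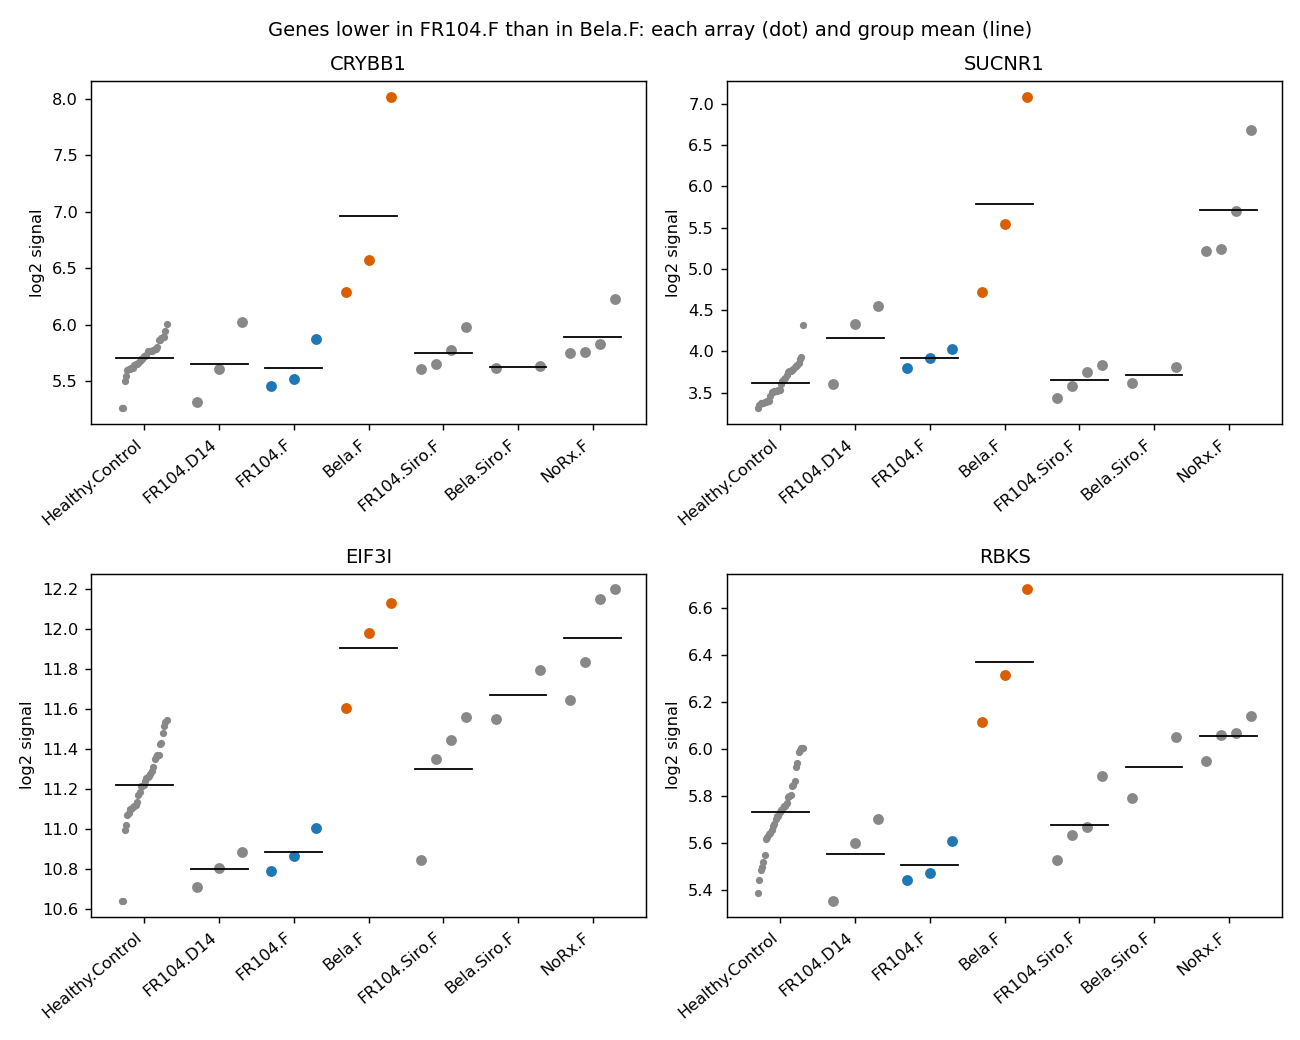
Log2 signal (vertical axes) of CRYBB1, SUCNR1, EIF3I and RBKS in each array (dots, spread sideways in order of value) of 7 groups, with the group mean as a line; FR104.F is blue and Bela.F orange. The 3 FR104.F arrays lie below the 3 Bela.F arrays in each panel, CRYBB1 of animal 47 stands at 8.02, and SUCNR1 is as high in NoRx.F (5.21 to 6.68) as in Bela.F (4.72 to 7.08).

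The next genes on the lower side, by p and with no overlap between the groups, did not pass. CAPNS1, the small subunit of the calpain proteases, came closest (-0.90 ± 0.20, adjusted p 0.0912), with 10.48, 10.13 and 10.45 in FR104.F and 11.05, 11.21 and 11.38 in Bela.F. SCG2, a secretogranin of secretory granules, had 3.36, 3.14 and 3.19 against 4.32, 5.29 and 3.70 (-1.21 ± 0.28, adjusted p 0.104). FKBP11, a folding enzyme of the endoplasmic reticulum, was at -0.78 ± 0.19. RPN2, a subunit of the complex that attaches sugars to new proteins there, was at -0.55 ± 0.13 (adjusted p 0.147 for both). The other RPN2 probe sets gave -0.46 ± 0.17 and, the opposite way, 0.32 ± 0.51. SPACA9 (-1.17 ± 0.29) and COMMD9 (-0.71 ± 0.18) completed the lower 10, with adjusted p of 0.168 and 0.175. CAPNS1, SPACA9 and COMMD9 fell in FR104.F against the controls (by 0.44, 0.65 and 0.44, adjusted p 0.0443, 0.0378 and 0.0202), and SCG2, FKBP11 and RPN2 rose in Bela.F (1.11, 0.94 and 0.39, adjusted p 1.09e-05, 7.10e-08 and 0.000899). CAPNS1, SCG2, FKBP11, RPN2, SPACA9 and COMMD9 passed between the groups in a fit without the batch term, with adjusted p of 0.00581 (SCG2) to 0.0150 (COMMD9).

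On the higher side the 10 leading genes had adjusted p from 0.310 (MINDY2) to 0.378 (RNF115 and the other 8). MINDY2, a deubiquitinase, had the smallest p: 7.75, 7.70 and 7.49 in FR104.F and 6.73, 6.21 and 6.76 in Bela.F (1.13 ± 0.33). GAD2, which makes the transmitter GABA from glutamate, was at 10.66, 10.95 and 10.87 against 9.33, 8.88 and 9.76 (1.57 ± 0.50). TNFSF11, the cytokine RANKL made by activated T cells, was at 5.78, 6.08 and 5.78 against 5.15, 5.05 and 5.25 (0.73 ± 0.24), and CASP8, the caspase that starts death receptor apoptosis, at 9.25, 9.52 and 9.09 against 8.33, 8.66 and 7.53 (1.14 ± 0.38). TNFSF11 and the ubiquitin ligase RNF115 rose in FR104.F against the healthy controls (0.96 ± 0.18 and 0.61 ± 0.11, adjusted p 0.000277 and 0.000181). MINDY2, CASP8, CYSLTR2, STK38 and RBM12B fell in Bela.F against the controls by 0.79, 0.79, 1.07, 0.43 and 0.90 (adjusted p 0.00857, 0.0213, 1.55e-05, 0.0127 and 0.00134). In FR104.F the same genes were at 0.34, 0.35, -0.22, 0.16 and 0.06 against the controls and did not pass (adjusted p 0.439 to 0.927). The remaining members of the 10 were ZBTB8OS (1.5 ± 0.48) and PDLIM1 (1.37 ± 0.45).

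Genes with a large difference often had a spread to match, as with those that follow, which were named after their values were seen. CCL23, a chemokine of myeloid cells, had the lowest difference (-3.42 ± 1.23, adjusted p 0.387), with 3.38, 3.46 and 7.82 in FR104.F and 9.70, 8.86 and 6.37 in Bela.F, and rose by 4.96 in Bela.F against the controls (adjusted p 6.99e-06). FR104.F animal 24 lay inside the Bela.F range, and the other two stayed within the control range of 2.52 to 4.71. USP14, a deubiquitinase of the proteasome, had the highest difference (3.99 ± 2.23, adjusted p 0.583), but it ran from 5.45 to 14.61 in the healthy controls alone.

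**Figure D2:**
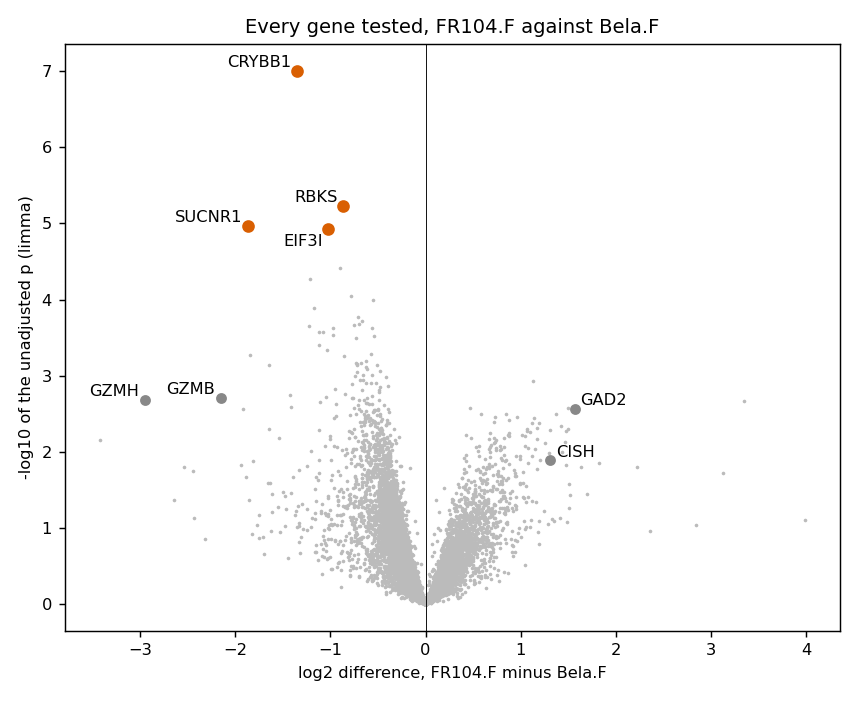
Each of the 11806 genes tested, with the log2 difference FR104.F minus Bela.F on the horizontal axis and -log10 of the unadjusted limma p on the vertical axis. The 4 genes that passed (orange) are on the lower side; GZMB (-2.15), GZMH (-2.94), CISH (1.31) and GAD2 (1.57) are labelled in grey and did not pass.

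Of 9 genes tested of the CD28 family and its ligands, 0 passed, the median difference was 0.03, and 1 had an unadjusted p under 0.05, where 9.21% of all genes did. CD28, the receptor that FR104 blocks, was at 7.73, 6.87 and 6.56 in FR104.F and at 7.05, 7.45 and 6.84 in Bela.F. The groups overlapped, and the difference of -0.07 ± 0.40 had a 95% interval of -0.86 to 0.73. The interval lies within 2-fold, the other probe sets of CD28 gave 0.21 ± 0.29 and 0.36 ± 0.34, and neither group passed against the controls (0.22 ± 0.29 and 0.28 ± 0.27, adjusted p 0.733 and 0.570).

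CTLA4, the inhibitory partner of CD28, was at 7.50, 7.42 and 7.38 in FR104.F and at 8.53, 9.12 and 7.93 in Bela.F, with 5.26 to 7.16 in the controls. All 6 arrays lay above every control, and the 3 of Bela.F above the 3 of FR104.F. The difference of -1.09 ± 0.54 did not pass (adjusted p 0.542, unadjusted p 0.0490, 95% interval -2.17 to -0.01). Its other probe sets gave -1.57 ± 0.45 and -0.81 ± 0.48. CTLA4 rose by 2.24 ± 0.36 in Bela.F against the controls (adjusted p 4.14e-06) and was at 1.15 ± 0.40 in FR104.F (adjusted p 0.0505).

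CD80 and CD86, the ligands that belatacept covers, are mostly made by antigen-presenting cells. CD86 was at 9.41, 6.70 and 6.90 in FR104.F and at 7.47, 6.85 and 7.56 in Bela.F, so that animal 22 stood apart, and the difference of 0.39 ± 1.16 had an interval (-1.94 to 2.71) too wide to tell. CD80 was likewise high in animal 22 (7.21, 5.90 and 5.27 against 6.23, 5.65 and 5.9993; 0.16 ± 0.37). Without animal 22 both differences turned negative (-0.48 and -0.38). ICOS, an inducible costimulator, was at -0.09 ± 0.38, and BTLA, an inhibitory receptor, at 0.73 ± 0.38 (adjusted p 0.970 and 0.553). TNFRSF14, the ligand of BTLA, was at -0.14 ± 0.19, ICOSLG at 0.03 ± 0.21 and PDCD1LG2 at 0.06 ± 0.14.

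Genes that carry or answer the CD28 signal also showed 0 calls: 0 of 18 in the T cell receptor and CD28 signalling list (median 0.03) and 0 of 15 among targets of costimulation (median 0.10). In the list of immediate early genes 0 of 10 passed, but 9 were below 0 (median -0.59). There, 1 of 10 had an unadjusted p under 0.05 on the lower side, where 7.11% of all genes did. FOS was at -2.31 ± 1.54, FOSL2 at -0.93 ± 0.44 and IER2, the 1 above 0, at 0.09 ± 0.33 (adjusted p 0.668, 0.531 and 0.967). ZAP70, the kinase next to the T cell receptor, was at -0.34 ± 0.15, AKT1, a kinase of the growth pathway, at -0.45 ± 0.20 and PIK3CD, the lipid kinase of lymphocytes, at 0.76 ± 0.33 (adjusted p 0.469 to 0.475). MYC, which drives growth of activated T cells, was at 10.18, 11.01 and 10.83 in FR104.F and at 10.10, 10.16 and 9.72 in Bela.F. All FR104.F arrays were above those of Bela.F, by 0.71 ± 0.46 (adjusted p 0.659). IL2, the T cell growth factor that CD28 induces, was at -0.01 ± 0.16 with an interval of -0.34 to 0.31 (a second probe set gave 0.61 ± 0.33), and IL2RA, its inducible receptor chain, at -0.09 ± 0.40. IL2RA rose against the controls in both groups, by 1.0 in FR104.F and 1.09 in Bela.F (adjusted p 0.01905 and 0.00212).

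**Figure D3:**
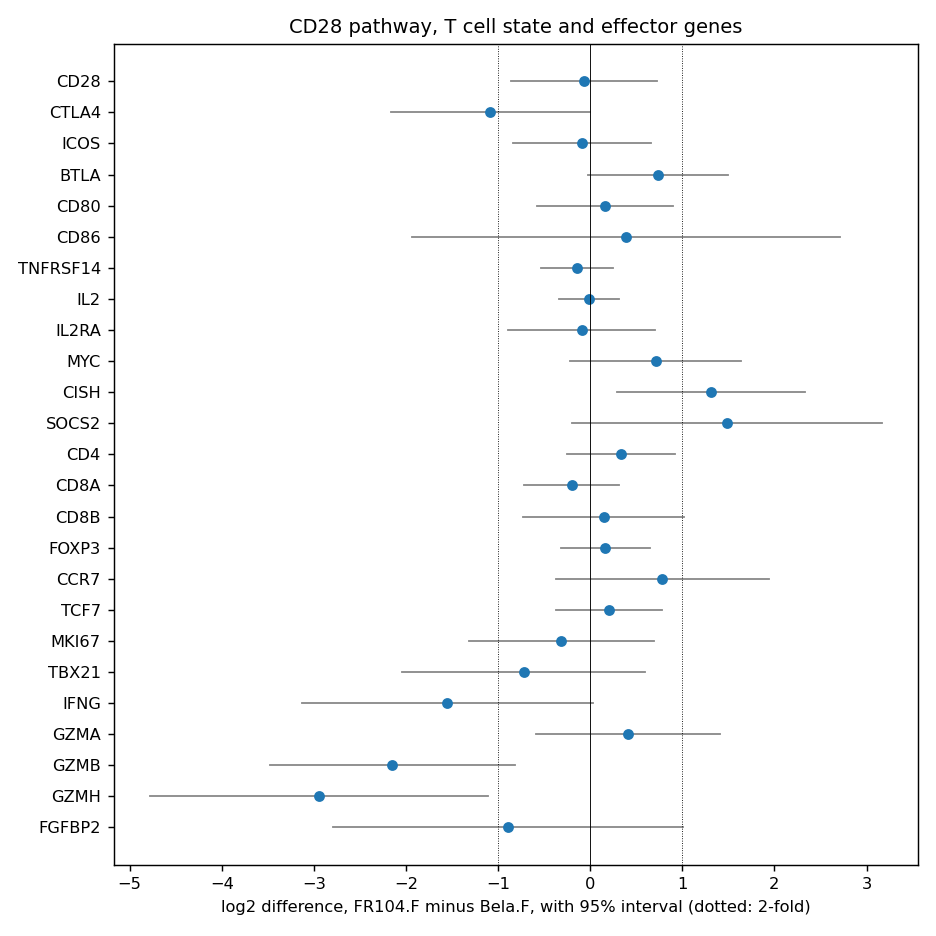
Log2 difference FR104.F minus Bela.F (horizontal axis; dots) with its 95% interval (lines) for 25 genes of the CD28 pathway, of T cell states and of effector function; dotted lines mark 2-fold. The interval of CD28 (-0.86 to 0.73) lies within 2-fold, those of GZMB (-3.48 to -0.82) and GZMH (-4.78 to -1.11) lie below 0, and none of these genes passed after adjustment.

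Cytotoxic effector genes had 0 of 15 members called, with a median difference of -0.58 against -0.07 over all genes. Among the 15, 5 had an unadjusted p under 0.05 on the lower side, where 7.11% of all genes did. GZMB, the granzyme that starts apoptosis in target cells, was at 10.02, 12.96 and 13.47 in FR104.F and at 14.43, 14.59 and 13.88 in Bela.F. The Bela.F arrays were all above the control range of 11.38 to 13.73, while animal 22 was below it. The difference of -2.15 ± 0.67, or 4.43-fold lower, did not pass (adjusted p 0.376), and it was -1.08 without animal 22. GZMB rose by 1.41 in Bela.F against the controls (adjusted p 0.0191) and was at -0.74 in FR104.F (adjusted p 0.391).

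GZMH, a granzyme of NK and CD8 cells, was at 6.58, 9.93 and 12.07 in FR104.F and at 11.49, 12.81 and 13.11 in Bela.F (-2.94 ± 0.92, adjusted p 0.376). Animal 22 again stood far below the others, and animal 24 lay inside the Bela.F range. GZMH fell by 2.55 in FR104.F against the controls (adjusted p 0.00894) and was at 0.40 in Bela.F (adjusted p 0.781). Of the FR104.F arrays only that of animal 22 lay below the control range of 9.71 to 13.20. Without animal 22 the value against the controls was -1.07 (adjusted p 0.492) and the difference from Bela.F -1.47. In such sorted samples fewer cells of a type and less RNA per cell cannot be told apart.

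GNLY, a membrane-lysing granule protein, was at 12.0011, 12.34 and 12.97 against 13.40, 13.58 and 13.75 (-1.16 ± 0.64, adjusted p 0.580). NKG7, a protein of cytotoxic granules, was at 9.82, 10.64 and 11.52 against 12.16, 12.07 and 11.81 (-1.39 ± 0.59, adjusted p 0.454). GNLY and NKG7 rose in Bela.F against the controls (1.52 and 1.22, adjusted p 0.00836 and 0.0222) and did not pass in FR104.F (0.36 and -0.17, adjusted p 0.726 and 0.874). CST7, an inhibitor of granule proteases (-1.33 ± 0.55), and SLAMF7, a receptor of cytotoxic lymphocytes (-1.50 ± 0.69), also had groups that did not overlap. GZMA went the other way (0.41 ± 0.50, adjusted p 0.861), and its dimmer other probe sets gave 0.63 ± 0.46, 1.16 ± 0.53 and 1.30 ± 0.53. FGFBP2 was at -0.89 ± 0.95. Means of the NK cell markers overlapped, at 7.49 to 9.07 in FR104.F, 8.27 to 9.01 in Bela.F and 7.68 to 9.65 in the controls, with 0 of 10 called, 0 at an unadjusted p under 0.05 and 8 below 0. KLRF1, a receptor of NK cells, was at 3.57, 6.28 and 8.84 in FR104.F against 8.64, 6.16 and 9.20 in Bela.F, and fell in FR104.F against the controls (by 3.16, adjusted p 0.0104). NCAM1, taken here as another marker of NK cells, was at 9.98 to 10.36 in all 6. The part of NK cells in the granzyme values was not tested.

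Of 14 Th1 and effector CD8 genes 0 passed (median -0.70). IFNG, the cytokine interferon gamma, was at 5.90, 5.21 and 5.89 in FR104.F and at 6.96, 8.56 and 6.09 in Bela.F (-1.55 ± 0.79, adjusted p 0.544). CCL5, a chemokine of effector cells, was at 7.52, 9.16 and 11.07 against 12.17, 10.78 and 12.08 (-2.44 ± 1.00, adjusted p 0.440), with some overlap. IL12RB2, a chain of the receptor for the Th1 cytokine IL12, was higher in all FR104.F arrays (6.99, 6.89 and 6.95 against 6.11, 6.49 and 6.26; 0.70 ± 0.32, adjusted p 0.506) by the probe set used. Its other probe sets gave 0.33 ± 0.19, 1.06 ± 0.41 and, the opposite way, -1.87 ± 0.63, so its direction is not settled. TBX21, the master regulator of Th1 cells, was at -0.72 ± 0.66. Against the controls IFNG, HOPX and IL18RAP rose in Bela.F (1.95, 1.14 and 2.03) and were at 0.40, 0.10 and 0.85 in FR104.F.

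Inhibitory receptors of activated and exhausted T cells had 0 of 11 called and the lowest median of the 36 lists (-0.74). Their mean was 7.79 to 8.03 in FR104.F, 8.14 to 8.85 in Bela.F and 6.74 to 7.50 in the controls, so both groups were above the controls and Bela.F was the higher. LAG3, a receptor for MHC class II, was at 9.40, 9.79 and 10.04 in FR104.F and at 10.87, 11.83 and 10.27 in Bela.F, far above the 6.48 to 7.84 of the controls. It rose in both groups, by 2.46 in FR104.F and 3.71 in Bela.F, and the difference between them was -1.25 ± 0.50 (adjusted p 0.422). HAVCR2, known as TIM3, was at 5.69, 5.56 and 5.57 against 6.29, 7.68 and 5.83 (-1.0 ± 0.35, adjusted p 0.387), and CD244 at 5.78, 6.28 and 6.62 against 8.84, 7.65 and 7.21 (-1.66 ± 0.73, adjusted p 0.474). CD200 leaned the other way (9.25, 8.53 and 8.65 against 8.11, 8.21 and 8.34; 0.60 ± 0.42, adjusted p 0.690) and rose against the controls in both groups.

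**Figure D4:**
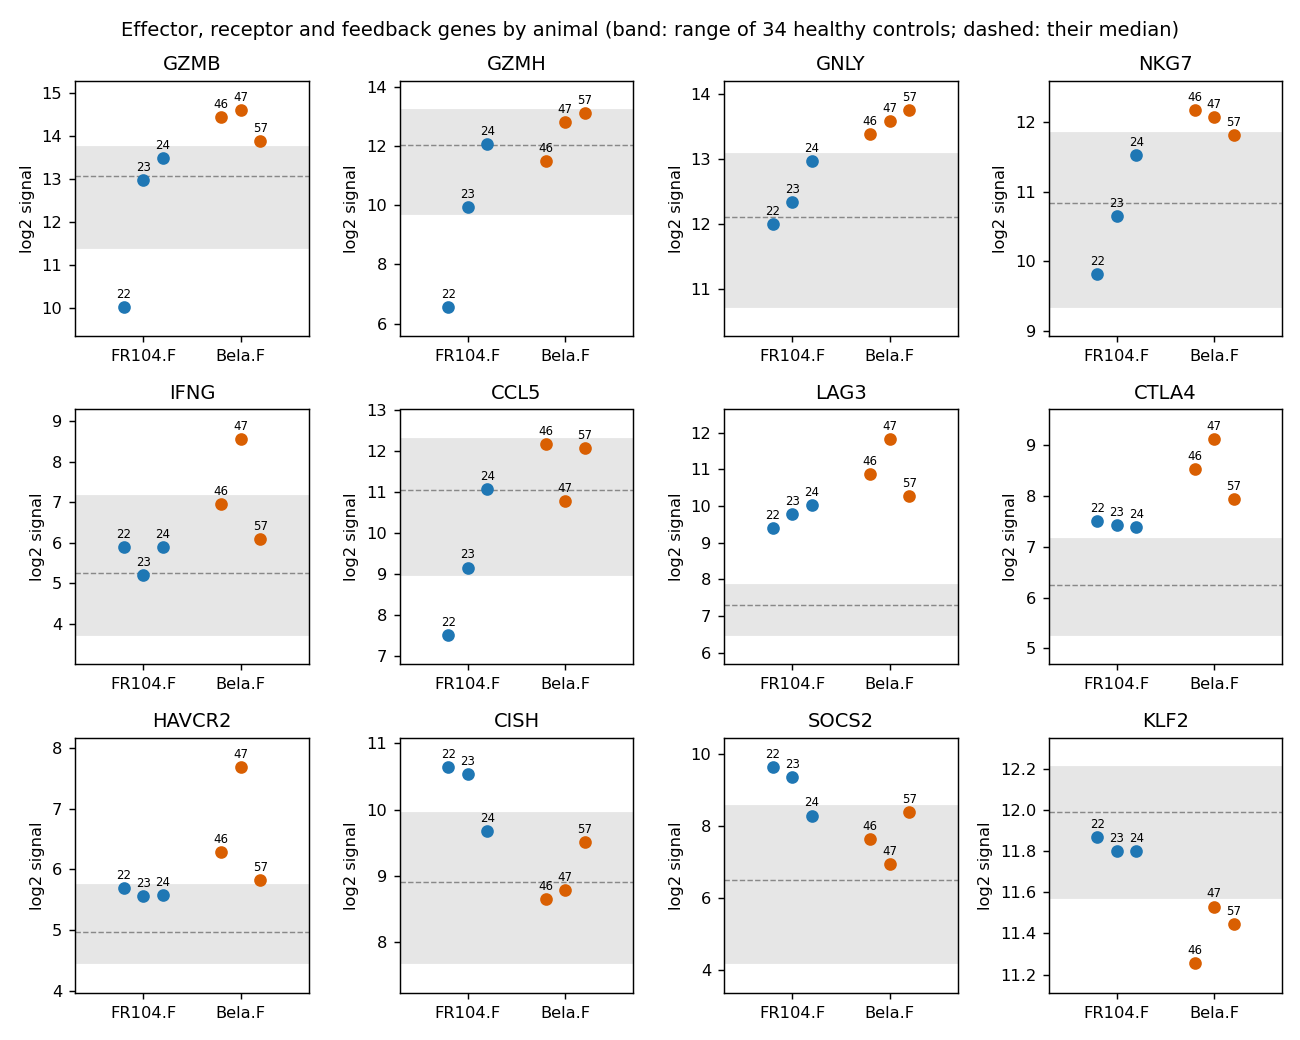
Log2 signal (vertical axes) of 12 genes in the FR104.F (blue) and Bela.F (orange) arrays, with the animal number at each dot, over the range (grey band) and median (dashed line) of the 34 healthy controls. Bela.F lies above the control range for GZMB and LAG3, animal 22 is lowest for GZMB (10.02) and GZMH (6.58), and CISH, SOCS2 and KLF2 lean the other way, with SOCS2 overlapping.

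Among genes of cytokine signalling, the JAK, STAT and feedback list leaned to the FR104.F side, though 0 of 13 passed. The list of cytokine receptors did not: 0 of 11 passed, 7 were below 0, and the median was -0.09 against -0.07 over all genes. Those receptors ran from -1.19 (IL18RAP) to 0.965 (IL6ST). IL2RG was at -0.46 ± 0.17 (adjusted p 0.387), and a second probe set of it gave 0.225 ± 0.44. Of the JAK, STAT and feedback list 12 of 13 had a difference above 0 (median 0.32), and their mean was 8.21 to 8.48 in FR104.F, 7.86 to 8.03 in Bela.F and 7.30 to 7.99 in the controls. CISH, which STAT5 induces to dampen cytokine receptors, was at 10.64, 10.54 and 9.68 in FR104.F and at 8.66, 8.78 and 9.51 in Bela.F. The groups did not overlap, and the difference was 1.31 ± 0.51 (adjusted p 0.406). A second probe set gave 1.35 ± 0.36. CISH rose by 1.48 in FR104.F against the controls (adjusted p 0.00629) and was at 0.17 in Bela.F (adjusted p 0.840). SOCS2, another feedback protein, was at 9.64, 9.38 and 8.30 against 7.64, 6.94 and 8.39 (1.48 ± 0.84, adjusted p 0.588), with an overlap in animals 24 and 57. It rose by 2.56 in FR104.F against the controls (adjusted p 0.00417) and was at 1.07 in Bela.F (adjusted p 0.207). STAT6, which carries the IL4 signal, was the exception on the lower side (-0.31 ± 0.18), though its other probe sets gave 0.03 ± 0.20 and 0.28 ± 0.25.

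Genes of naive and resting T cells had a median of 0.41, with 9 of 11 above 0 and 0 called. KLF2, which keeps T cells quiescent and recirculating, was at 11.87, 11.80 and 11.80 in FR104.F and at 11.25, 11.53 and 11.44 in Bela.F (0.41 ± 0.19, adjusted p 0.502). A second KLF2 probe set gave 0.14 ± 0.29. By the probe set used, KLF2 fell by 0.56 in Bela.F against the controls. CCR7, the lymph node homing receptor, was at 0.78 ± 0.58 and TCF7, a factor of naive and memory cells, at 0.21 ± 0.29 (adjusted p 0.7102 and 0.890). Of the 6 T cell identity genes tested, BCL11B, a factor that keeps T cell fate, was at 7.30, 7.71 and 7.26 against 6.74, 6.05 and 6.01 (1.17 ± 0.48, adjusted p 0.435) and CD6 at 0.82 ± 0.39. CD5, SIT1 and CD7 were within 0.12 of 0. The coreceptors were close: CD4 at 0.33 ± 0.29, CD8A at -0.20 ± 0.26 and CD8B at 0.14 ± 0.44 (a second CD8A probe set gave 0.51 ± 0.42), with animal 22 lowest of the 6 in both CD8 genes (12.06 and 9.88). FOXP3, the factor of regulatory T cells, was at 0.16 ± 0.24, and 0 of 15 genes of the regulatory T cell list passed.

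Receptors of adhesion and homing held some of the larger positive differences: ITGB1, an integrin chain, was at 10.92, 11.05 and 10.54 against 9.82, 9.15 and 9.24 (1.43 ± 0.54, adjusted p 0.391). FUT7, which builds selectin ligands, was at 7.37, 7.19 and 7.48 against 5.70, 7.03 and 5.77 (1.17 ± 0.42, adjusted p 0.387). In the list of 19 such genes 0 passed and the median was 0.00.

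Genes of proliferation were above the controls in both groups. Of 13 cell division genes 11 rose in FR104.F and 12 in Bela.F against the shared controls (medians 1.49 and 1.75), and of 15 DNA replication genes 13 and 15 (1.27 and 1.72). Over all genes, 5.39% were higher in FR104.F and 12.4% in Bela.F. Between the groups 0 passed in either list, with medians of -0.33 and -0.43. MKI67, a marker of dividing cells, was at 9.08, 8.02 and 8.44 in FR104.F and at 9.15, 9.09 and 8.23 in Bela.F (-0.31 ± 0.50, interval -1.32 to 0.69). Those arrays overlapped and all lay above the control maximum of 7.38. CCNB2, a mitotic cyclin, was at -0.92 ± 0.65 and TYMS, which makes thymidylate for DNA, at -1.06 ± 0.74 (adjusted p 0.690 and 0.687).

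Metabolic lists differed little: the medians were -0.21 for 14 glycolysis genes, -0.07 for 19 genes of oxidative phosphorylation and -0.08 for 14 of the citric acid cycle, with 0 called. All 14 of the citric acid cycle genes, among them the succinate dehydrogenase subunits SDHA (-0.20 ± 0.19), SDHB (-0.16 ± 0.15) and SDHC (0.16 ± 0.18), had an interval within 2-fold by the probe set used; a second probe set of MDH2, malate dehydrogenase, was at -1.44 ± 0.63. PFKP, a glycolytic kinase, was at -0.61 ± 0.24, FDPS, of the cholesterol pathway, at -0.57 ± 0.16 and CDKN1A, the p53 target p21, at -0.93 ± 0.34 (adjusted p 0.413, 0.251 and 0.387).

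The families of SUCNR1 and CRYBB1 held no other call. Of the 21 metabolite and nucleotide receptors tested, 1 passed, SUCNR1 itself, and the median was 0.07. LPAR6, a receptor for lysophosphatidic acid, was at 11.01, 12.04 and 11.35 in FR104.F and at 10.19, 9.80 and 10.22 in Bela.F, the opposite side from SUCNR1 (1.43 ± 0.49, adjusted p 0.387). GPR132, a receptor for oxidised lipids, was at 0.63 ± 0.26, and P2RX4, an ATP-gated channel, at -0.37 ± 0.18. Of 14 crystallins 1 passed, CRYBB1 (median -0.17). CRYAB, the small heat shock protein of that family, was at -0.34 ± 0.17, and CRYZ, a quinone reductase named for its lens homologue, at 1.05 ± 0.52.

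Markers of other blood cells had 0 calls between the groups. Of 14 monocyte and myeloid genes 12 were below 0 (median -0.31), with means of 6.18 to 7.30 in FR104.F, 7.27 to 7.37 in Bela.F and 4.97 to 7.30 in the controls. S100A8, an alarmin of monocytes and neutrophils, was at 9.78, 9.10 and 12.06 in FR104.F and at 13.44, 13.32 and 11.91 in Bela.F, against 5.22 to 9.06 in the controls. It rose in both groups, by 3.43 and 6.07, and the difference was -2.64 ± 1.28 (adjusted p 0.531). CD14 and CSF1R, which define monocytes, were at -0.58 ± 0.49 and 0.22 ± 0.40. Among dendritic cell markers, IRF8 was at 6.61, 6.73 and 7.24 against 8.16, 9.49 and 7.82 (-1.64 ± 0.46, adjusted p 0.262), rose by 2.17 in Bela.F against the controls and passed where probe sets of 1 gene were averaged. Activated T cells also make IRF8.

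Erythroid genes had the highest median of the 36 lists (0.68), with 0 of 8 called and 6 above 0. HBB, the beta chain of hemoglobin, was at 7.60, 5.24 and 7.62 in FR104.F and at 4.34, 4.92 and 4.62 in Bela.F (2.22 ± 0.90, adjusted p 0.427), with 4.41 to 8.01 in the controls. ALAS2, which starts heme synthesis in red cell precursors, was high in animal 24 (9.32) and at 5.77 to 7.02 in the other 5, and a dimmer second probe set of it gave -0.47 ± 0.24. The means of the list were 4.90 to 6.71 in FR104.F, 4.79 to 4.93 in Bela.F and 4.56 to 5.92 in the controls. MS4A1, the B cell antigen CD20, was dim at 3.00 to 3.56 against 3.88 to 4.33, and fell in FR104.F against the controls (by 1.80, adjusted p 0.00925); the B cell list had a median of -0.05. Platelet and neutrophil markers had medians of -0.14 and -0.24 with overlapping groups.

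**Figure D5:**
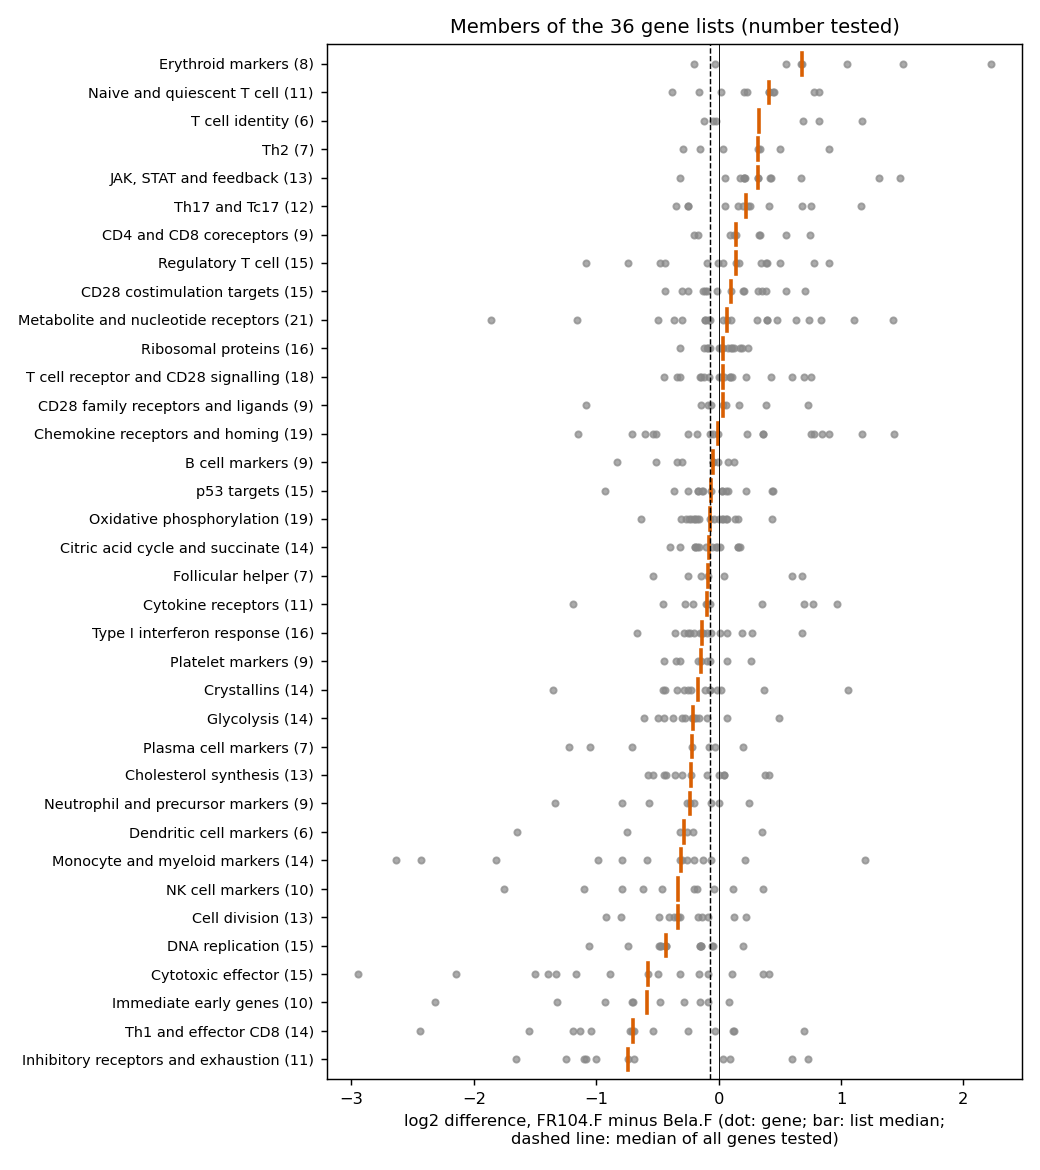
Log2 difference FR104.F minus Bela.F (horizontal axis) of every tested member (dots) of 36 gene lists, with the list median (orange bar), sorted by that median; the dashed line is the median of all genes (-0.07). Medians run from -0.74 for inhibitory receptors to 0.68 for erythroid markers, and the dots of each list spread over both sides of 0.

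The same agents were also given with Siro, read here as sirolimus, which inhibits the growth kinase mTOR (FR104.Siro.F, n = 4, batch 4; Bela.Siro.F, n = 2, batch 3). This pair shares no array with FR104.F and Bela.F. There, 6 genes (0.0508%) were lower in FR104.Siro.F and 0 were higher: IL17A, PCDH8, PTX3, IL1B, ADM and IL22. With 2 Bela.Siro.F arrays this count hangs on single arrays: it was 42 without Bela.Siro.F animal 38, 2 without animal 42 or FR104.Siro.F animal 28, and 3 without FR104.Siro.F animal 27 or 29. None of them passed in FR104.F against Bela.F, where IL17A was at 0.41 ± 0.24 and IL22 at 0.26 ± 0.22 (adjusted p 0.6003 and 0.760). The 4 genes that passed without Siro were at 0.12 ± 0.24 (CRYBB1), -0.06 ± 0.41 (SUCNR1), -0.38 ± 0.23 (EIF3I) and -0.25 ± 0.19 (RBKS) with it.

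The difference between these differences was tested in the same fit, and 3 genes (0.0254%) passed, 2 above 0 (0.0169%) and 1 below (0.00847%). That count was 1 without Bela.F animal 47, FR104.F animal 22 or 23, or FR104.Siro.F animal 29, and it was 5, 9 and 12 without FR104.F animal 24, Bela.F animal 57 and Bela.Siro.F animal 38. For CRYBB1 it was -1.47 ± 0.28 (adjusted p 0.0112): the arrays were 5.61, 5.66, 5.78 and 5.98 in FR104.Siro.F and 5.63 and 5.62 in Bela.Siro.F, at the control level in both. This call was lost without Bela.F animal 47 (-0.94, adjusted p 0.274) and without FR104.F animal 22 or 23, Bela.Siro.F animal 42 or FR104.Siro.F animal 29 (-1.47 to -1.39, adjusted p 0.0508 to 0.0842). For SUCNR1 it was -1.80 ± 0.49 and did not pass (adjusted p 0.690), although its Siro arrays lay at 3.44 to 3.83 and 3.61 to 3.81.

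For IL17A, the signature cytokine of Th17 cells, the difference of differences was 2.20 ± 0.30 (adjusted p 4.05e-06). IL17A was at 5.05, 3.57 and 3.87 in FR104.F and at 3.72, 3.72 and 3.81 in Bela.F, but at 4.03, 4.18, 3.87 and 4.22 in FR104.Siro.F and at 5.96 and 5.76 in Bela.Siro.F. Of these, the 2 Bela.Siro.F arrays and FR104.F animal 22 stood well above the control maximum, and FR104.Siro.F animal 28 just above it (4.2234 against 4.2218). Arrays of other groups were above it as well. They were those labelled Tac.Mtx.F (4.28 to 5.16, n = 3) and FR104.Siro.D14 animal 29 (4.48, sampled at day 22). Animal 38, of Bela.Siro.F, was also above it in Bela.Siro.D14 (4.26) and Bela.Siro.D30 (4.50). IL22, a cytokine that acts on epithelia, was at 4.17, 4.20 and 3.72 against 3.52, 3.76 and 4.03 without Siro. With it, IL22 was at 4.13, 4.71, 4.43 and 4.56 against 4.78 and 6.26 (difference of differences 1.32 ± 0.28, adjusted p 0.0487). That call was lost in 12 of 19 alternatives, and without Bela.Siro.F animal 42 the value was 0.58 (adjusted p 0.997). Both cytokines were dim, with control maxima (4.22 and 4.44) under the 4.65 of the filter. Outside Bela.Siro.F, IL17A exceeded 4.65 only in FR104.F animal 22 and Tac.Mtx.F animal 20, and IL22 only in FR104.Siro.F animal 26. IL22 therefore passed the filter only with the Bela.Siro.F arrays, the group where it was highest, and its call gives no separate support. A second, dimmer IL17A probe set gave -0.17 ± 0.11 for FR104.F minus Bela.F.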

How the data were processed

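RNA of CD3-sorted blood T cells was measured on 81 Affymetrix arrays of 50 macaques. The authors deposited log2 values per probe set, made with RMA in the affy package per the submitters' processing notes; their versions are not given in the sources used here. A batch adjustment before deposit was read from the values (almost no spread between batches of controls), and its method is not stated.

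Of 52865 probe sets, 24969 named 1 gene, 361 several (left out) and 27535 none. The probe set of highest mean stood for a gene, giving 14132 genes, and 11806 lay above 4.65, the 40th percentile, in 2 or more arrays. One limma model (trend) with group and batch over all 81 arrays gave every difference, with Benjamini-Hochberg adjustment, called at 0.05. Scripts were tested on simulated data. Versions were R 4.3.3, limma 3.58.1, statmod 1.5.0, Python 3.11.15 and matplotlib 3.10.9. The unnamed probe sets were fitted apart (16975 tested).

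Named were genes that passed, the 10 of smallest p on each side whose groups did not overlap, the 3 smallest p of each of 36 lists, and a fixed set; others are named as list members, or as chosen after their values were seen. The arrays compared, the lists and the rule were chosen with earlier results of these data known. Alternatives covered the batch term, arrays fitted, filter, probe set rule, quantile normalization, robust eBayes, an animal block, leaving out single arrays and, chosen after seeing the data, an actin covariate and leaving out arrays of the Siro groups.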

Additional observations from a re-analysis of the deposited data

Results flagged for a closer look

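The difference between the agents itself differed between the arms without and with Siro in 3 genes by limma's test of the difference of differences (without Siro minus with Siro): IL17A at 2.20, CRYBB1 at -1.47 and IL22 at 1.32. Of these, CRYBB1 passed in 15 of 20 alternatives. IL17A passed in the 18 of these that tested it (1.75 to 2.5), and IL22 in 7 of the 19 that tested it. In the others the filter had removed these 2 genes. Signals of IL17A and IL22 were under 4.65 in most arrays. IL22 passed the filter only through the Bela.Siro.F arrays, the group where it was highest, so its call gives no separate support.

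For the 6 genes called in either test, single samples stood far from the rest in 2 of 24 sets of a gene and a group of 4 arrays, and chance alone gives about 1 in 20. SUCNR1 was at 5.12 in animal 18 of the Siro group, and IL17A at 4.48 in animal 29 of FR104.Siro.D14. Despite its name, that group mixes days: animals 26 and 28 were sampled at day 14, animal 29 at day 22 and animal 27 at day 34.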

How the results depend on the processing

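The number of genes lower in FR104.F than in Bela.F was 4, and 0 were higher in each alternative run. It was 41 with no batch term, 0 with only the 2 groups and the controls of batches 3 and 4 (1091 at an unadjusted p under 0.05), 0 with only the 6 arrays (1605) and 1 with the actin covariate; leaving out 1 array gave 0 to 16. FR104.F and Bela.F hold different animals, so nothing pairs them; with animal as a replicate block over all arrays, where an animal can have several, the count was 4. FR104.F against the controls (1259) gave 2237 with no batch term, 729 with the actin covariate and 246 to 1107 without 1 array. Bela.F against the controls (2082) gave 818 to 2182 without 1 array. FR104.Siro.F against Bela.Siro.F (6) gave 11 with no batch term, 3 with the replicate block, 1 with the stricter filter, 2 with mean probe sets and 2 to 42 without 1 array. The difference of differences (3) gave 1 with the stricter filter, 1 with mean probe sets and 1 to 12 without 1 array. The cause was not tested for these changes, beyond fewer arrays or genes in the fit.

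Of 742 comparisons of a named gene under an alternative, 670 kept direction and side of the threshold, 45 lost a call, 8 gained one and 19 changed sign. List medians are not among the 742. All that changed sign were small and not called. With mean probe sets CD28 was at 0.17, CD8A at 0.16 and IL2 at 0.19, and IL2 was at 0.0307 with the replicate block. Leaving out 1 array gave -0.40 to 0.18 for CD28, -0.38 to 0.59 for CD80, -0.48 to 0.87 for CD86, -0.21 to 0.0072 for ICOS, -0.42 to 0.0635 for CD8A, -0.13 to 0.60 for CD8B, -0.43 to 0.36 for IL2RA and -0.0797 to 0.0412 for IL2. The share of lower genes among those at an unadjusted p under 0.05 was 77.2%, but 65.3% with mean probe sets and 66.9% with only the 6 arrays. SUCNR1 was too dim for the stricter filter. Signals near 4.65 carry little information on size, and 3 arrays a group limit every call.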

Other observations

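Probe sets with no gene name were fitted in the same limma model: of 16975 tested in FR104.F against Bela.F, 0 passed and 1573 had an unadjusted p under 0.05.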
